A study of Mus musculus with 18 samples.

Results

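The growth hormone and STAT5 axis of the liver was followed through 10 genes in hepatocytes from both sides of the liver lobule and in 3 feeding states. The genes were chosen by name, with earlier results of these data known, and matched to Ensembl mouse identifiers. They were the receptor Ghr, the kinase Jak2, the transcription factors Stat5a and Stat5b, and the secreted products Igf1 and Igfals. With them stood the feedback inhibitors Socs2 and Cish and the transcription factors Bcl6 and Onecut1. All 10 were found among the 28030 genes of the table, and all 10 were among the 12477 genes with enough counts to be tested.

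Growth hormone binds its receptor on hepatocytes, the receptor-bound kinase JAK2 phosphorylates STAT5A and STAT5B, and STAT5 dimers enter the nucleus and bind DNA at the palindrome TTCNNNGAA. The liver answers by secreting IGF-1 and the acid-labile subunit that carries it in blood, by making the SOCS proteins that shut the signal down, and by repressing or inducing other transcription factors, which gives many liver genes their difference between the sexes. Prolonged fasting is known for a liver resistant to growth hormone, in which the hormone is high in blood while IGF-1 is low.

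RNA was sequenced from hepatocytes of wild-type C57BL/6J males, 12 weeks old and kept on normal chow, after total RNA extraction. Pericentral cells (near the central vein, PC) or periportal cells (near the portal vein, PP) were collected after digitonin perfusion, in which this detergent removes the cells of the other zone. All mice had been trained for 3 days with food withheld for 16 h each night. Fed mice were killed at clock hour 13 after 4 h with food and 20% sucrose in the water, 8 h fasted mice at clock hour 21, and 24 h fasted mice at clock hour 13 on the following day. The 8 h groups thus differed from both the fed and the 24 h groups in clock hour as well as in time without food. In every contrast with an 8 h group, the parts of the 2 cannot be told apart. Each of the 6 groups held 3 libraries. The labels do not say whether these, or the PC and PP libraries of a number, came from separate mice, so the p-values measure the spread between these libraries, which may be technical.

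The libraries held 18359911 to 26384358 estimated counts. Levels are given as CPM, counts scaled to a common library total after each total was multiplied by its TMM factor, 0.83 to 1.10. All 8 pericentral markers were lower and all 8 periportal markers higher in PP than in PC libraries averaged over the states. Within PC cells the periportal markers were, as a sum, higher after fasting. Their summed level was 1076 to 1729 CPM when fed, 1866 to 2367 CPM at 8 h, then 2836, 4126 and 2759 CPM at 24 h, with no overlap between the states. By edgeR 6 of the 8 were called as higher in PC cells at 24 h than when fed (median log2 fold change 1.29), and 4 of 8 as higher than at 8 h (median 1.04). Of all genes, 21.8% and 9.71% were called in these contrasts, in either direction. Aldh1b1 and Cdh1 were called in neither, and ranged from 0.899 to 4.01 and from 7.22 to 15.3 CPM over the PC libraries. Replicate 2 of the PC 24 h group stood apart, with the highest periportal marker sum and the lowest Glul (110.9 CPM) and Slc1a2 (8.82 CPM) of the PC libraries. Its sum of all 8 pericentral markers, 11420 CPM, was the lowest of its group. Replicate 1 of PC 8 h had a lower one, 10370 CPM. Hepatocyte markers summed to 84620 to 122600 CPM in PC and 138800 to 225900 CPM in PP libraries. Markers of other liver cells were low. Summed sinusoidal endothelial markers reached 3.63 to 12.4 CPM in PC and 4.16 to 46.1 CPM in PP libraries, with 6 of the 8 tested higher in PP. Kupffer cell and leukocyte markers reached 0.744 to 6.32 and 0.929 to 24.8 CPM, with 5 of 8 higher in PP. Stellate cell markers reached 1.60 to 9.05 and 2.40 to 22.8 CPM, with 0 of the 4 tested differing between zones. Cholangiocyte markers reached 19.3 to 37.6 and 32.8 to 56.7 CPM, carried by Krt7, Sox9 and Spp1. Sox9 and Spp1 were the 2 of 3 tested that were higher in PP, and Epcam was at 0 in all 18 libraries. The part of these cells in the zone differences below was not tested. In such bulk samples, fewer cells of a type and less RNA per cell cannot be told apart.

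The receptor gene Ghr was lower after fasting, and lower in PP than in PC cells. Its levels in the PC libraries, in the order of replicates 1 to 3 used throughout, were 568, 618 and 534 CPM when fed, 393, 506 and 484 CPM at 8 h, then 507, 549 and 503 CPM at 24 h. In PP cells they were 579.5, 495 and 490.2 CPM when fed, 395, 397 and 387 CPM at 8 h, then 437, 365 and 389 CPM at 24 h. All 6 fasted PP libraries lay below all 3 fed PP libraries, while fed and 24 h PC libraries overlapped. A gene was called when its adjusted p, from edgeR's quasi-likelihood test over all 12477 genes with Benjamini-Hochberg adjustment, was under 0.05. Ghr was called in PP cells at 8 h (log2 fold change -0.41, SE 0.11, adjusted p = 0.0222 by edgeR) and at 24 h (-0.39, SE 0.11, adjusted p = 0.0217). Both PP calls were lost in a fit of only the groups compared. They were also lost without replicate 1 of PP fed, at -0.33 with an adjusted p of 0.117 and -0.31 with 0.114 by edgeR. The first was also lost without replicate 2 (adjusted p = 0.0562) or 3 (0.0674) of PP 8 h, and the second without replicate 2 (0.0911) or 3 (0.0693) of PP 24 h. In PC cells the change was -0.31 at 8 h and -0.14 at 24 h, neither of which passed. Averaged over zones, Ghr fell by 0.36 (SE 0.08) at 8 h and by 0.27 (SE 0.08) at 24 h on the log2 scale, both called. Averaged over states, Ghr was lower in PP cells by a log2 difference of -0.25 (SE 0.07, adjusted p = 0.011 by edgeR). The largest of the single differences, at 24 h, was -0.39 with no overlap between zones (SE 0.11, adjusted p = 0.0662 by edgeR), and it passed with DESeq2 (0.00865) and without replicate 1 of PC 8 h (0.0358).

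Jak2, the kinase that the receptor activates, did not pass in any of the 15 contrasts. Its levels were 7.50, 13.3 and 9.38 CPM in fed PC libraries, 11.5, 9.67 and 11.6 CPM at 8 h, then 12.7, 14.0 and 15.3 CPM at 24 h. The PP libraries lay between 8.76 and 13.0 CPM in every state. The PC libraries at 24 h were among the highest but overlapped the fed ones (log2 fold change 0.48, SE 0.19, adjusted p = 0.0819 by edgeR), and without replicate 2 of the fed PC group the change was 0.72 with an adjusted p of 0.0138. Averaged over zones, the change at 24 h was 0.24 with a 95% interval from -0.03 to 0.50, and without the same library it was 0.36 with an adjusted p of 0.0366 by edgeR.

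Stat5b, the STAT5 form that answers the growth hormone pulses of male liver, was highest at 8 h in both zones. In PC cells its levels were 33.4, 38.1 and 36.9 CPM when fed, 62.7, 70.4 and 53.6 CPM at 8 h, then 47.3, 48.4 and 50.1 CPM at 24 h. In PP cells they were 35.6, 45.9 and 46.6 CPM when fed, 79.3, 79.7 and 56.6 CPM at 8 h, then 46.7, 57.8 and 66.1 CPM at 24 h. Every fasted library of a zone lay above every fed library of that zone, though in PP cells the nearest of them, at 46.7 and 46.6 CPM, were almost level. In PC cells the 3 states did not overlap at all. Stat5b rose at 8 h by a log2 fold change of 0.78 (SE 0.15, adjusted p = 0.00208 by edgeR) in PC and 0.75 (SE 0.15, adjusted p = 0.00311) in PP cells. At 24 h the changes of 0.43 and 0.41 in the single zones did not pass (adjusted p = 0.0521 and 0.0641 by edgeR), though both passed without replicate 3 of PP 8 h or replicate 1 of PP 24 h and with DESeq2 (0.0403 and 0.0455). The first also passed without replicate 1 of PP fed or replicate 3 of PP 24 h and with the replicate number as a block (0.0484). The average over zones was called (0.42, SE 0.11, adjusted p = 0.00555 by edgeR). From 8 h to 24 h, Stat5b fell by 0.35 (SE 0.11, adjusted p = 0.0288 by edgeR) averaged over zones. That call was lost without replicate 2 of PC 8 h, replicate 1 or 2 of PP 8 h, or replicate 1 or 2 of PP 24 h, with adjusted p from 0.0512 to 0.0727. The zone difference of Stat5b did not pass by edgeR (averaged 0.22, SE 0.09, adjusted p = 0.0793), but did when replicate 1 of PP fed, replicate 3 of PP 8 h or replicate 1 of PP 24 h was left out (0.0236 to 0.0414).

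Stat5a, the close relative of Stat5b, was likewise highest at 8 h but was a gene of the pericentral side. Fed PC libraries held 11.7, 11.3 and 12.6 CPM, 8 h PC libraries 13.6, 17.0 and 14.8 CPM, and 24 h PC libraries 9.92, 10.8 and 8.16 CPM. PP libraries held 6.85, 8.99 and 9.33 CPM when fed, 12.8, 10.1 and 8.48 CPM at 8 h, then 7.88, 8.85 and 6.94 CPM at 24 h. Among PC libraries the 3 states did not overlap, while all PP states overlapped. Stat5a was lower in PP cells averaged over states (log2 difference -0.44, SE 0.09, adjusted p = 0.00306 by edgeR), with differences of -0.50, -0.53 and -0.29 in the fed, 8 h and 24 h states that did not pass singly. Without replicate 1 of PP 8 h the first 2 passed (adjusted p = 0.0428 and 0.0134 by edgeR), and without replicate 3 of PC 24 h the second did (0.0477). It fell from 8 h to 24 h in PC cells (-0.65, SE 0.16, adjusted p = 0.0194 by edgeR), a call lost without replicate 2 of PC 8 h (adjusted p = 0.0703) or replicate 3 of PC 24 h (0.084). It also fell between those times averaged over zones (-0.53, SE 0.12, adjusted p = 0.00434). Its rise from fed to 8 h averaged over zones (0.34, SE 0.12, adjusted p = 0.0395 by edgeR) was lost under 8 of 26 alternatives, leaving out replicate 1 or 2 of PC fed, replicate 1 of PP fed, replicate 2 or 3 of PC 8 h and replicate 1 or 2 of PP 8 h among them, with an adjusted p of up to 0.106. Both genes lie on chromosome 11 of GRCm38, Stat5b at chr11:100780731-100850724 on the minus strand and Stat5a at chr11:100859351-100885169 on the plus strand. Of their distinct stretches of 31 bases, 11.5% of those of Stat5a also occur in Stat5b and 15.1% of those of Stat5b in Stat5a, so reads from these stretches could have been shared out between them. Stat5a also overlaps Stat3 on the opposite strand.

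**Figure D1:**
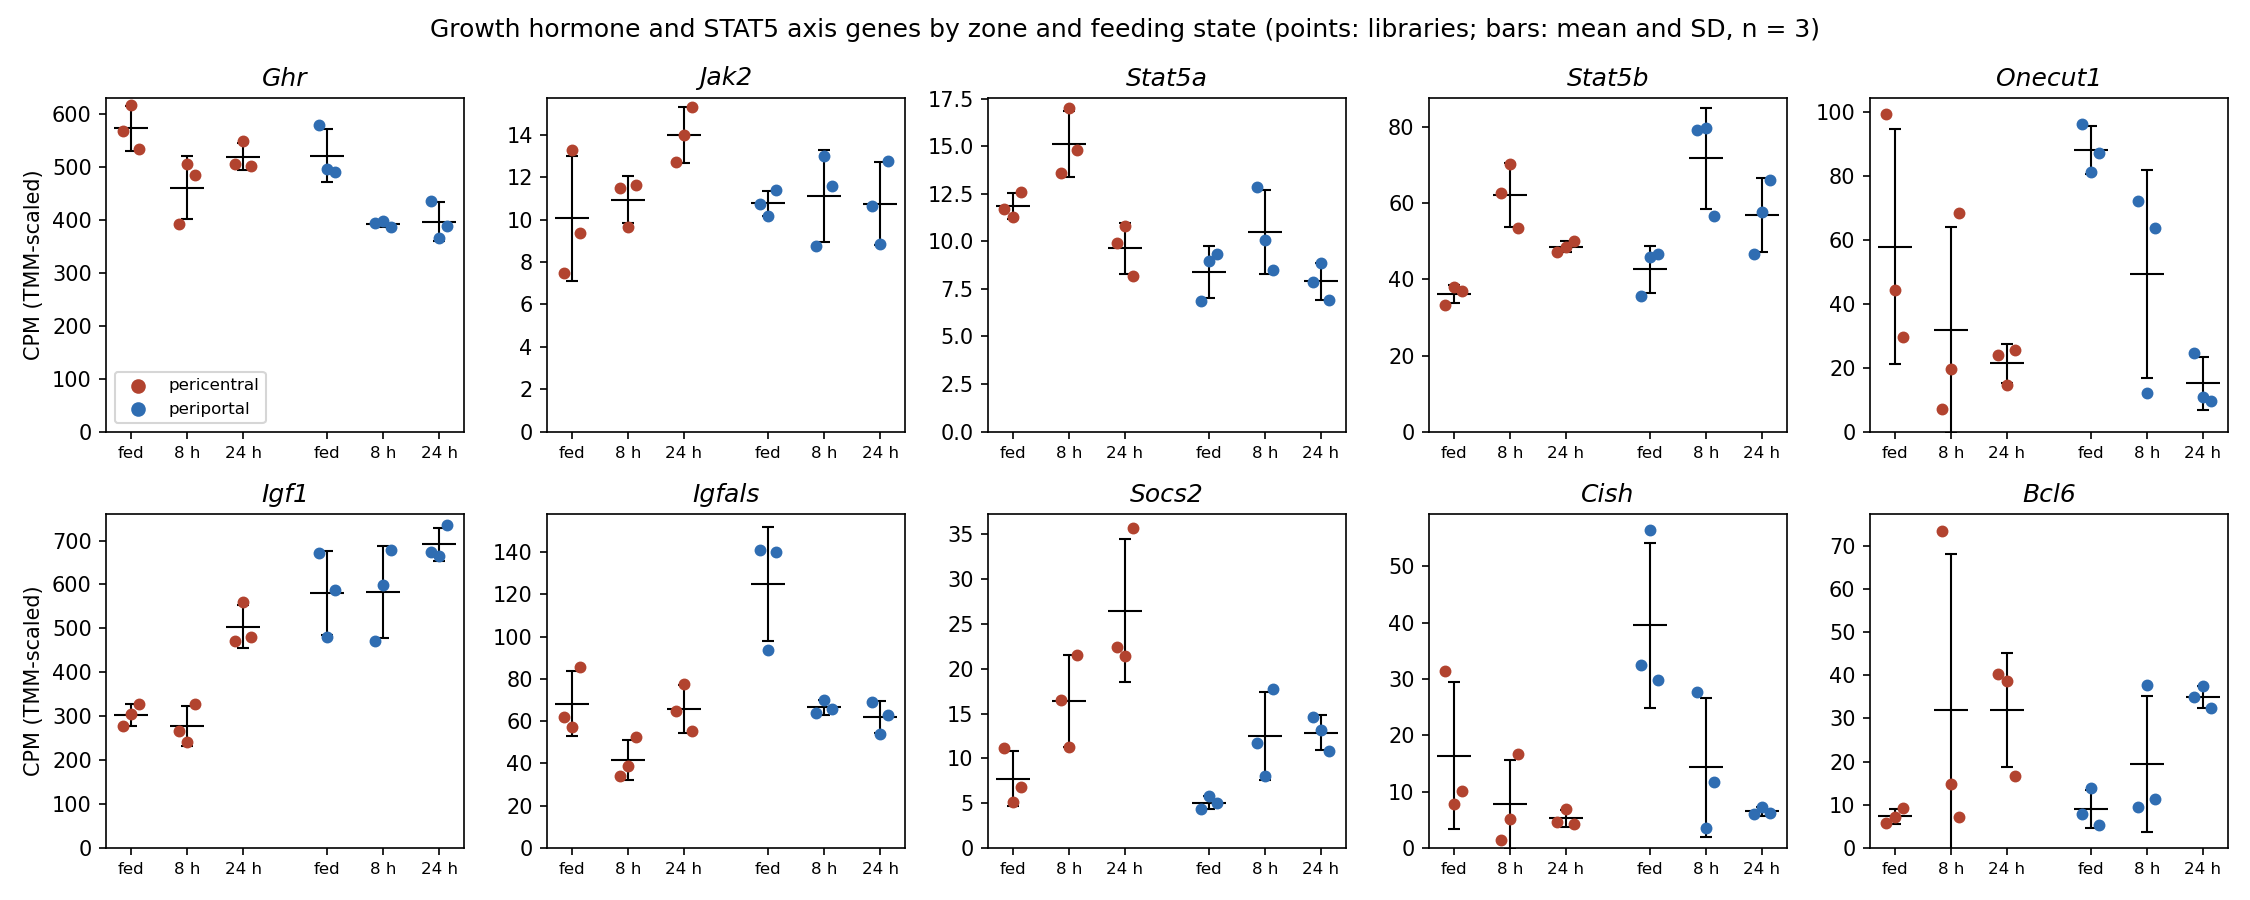
Levels of the 10 genes in CPM (y axes, each starting at 0) in the fed, 8 h and 24 h groups of pericentral (red) and periportal (blue) hepatocytes. Points are libraries, and bars are the mean and the SD of 3 libraries, drawn no lower than 0. Stat5b peaks at 8 h in both zones, Igf1 is lowest in fed and 8 h pericentral cells, and Cish, Bcl6 and Onecut1 are the most scattered within their groups.

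Igf1, the gene of the growth factor that the liver secretes on growth hormone, was expressed more on the periportal side and was called as lower in no fasting contrast. In PC cells it stood at 277, 304 and 328 CPM when fed, 265, 241 and 328 CPM at 8 h, then 471, 560.1 and 479.6 CPM at 24 h. In PP cells it stood at 671, 481 and 587 CPM when fed, 471, 598 and 679.6 CPM at 8 h, then 675, 664 and 735 CPM at 24 h. All PP libraries of a state lay above all PC libraries of that state, and the 24 h PC libraries lay above the other 6 PC libraries. Igf1 was called as higher in PP cells when fed (log2 difference 0.93, SE 0.15, adjusted p = 9.1e-04 by edgeR) and at 8 h (1.07, SE 0.15, adjusted p = 4.3e-04), but not at 24 h (0.46, SE 0.15, adjusted p = 0.116). With DESeq2's Wald test the 24 h difference passed (adjusted p = 0.0471). In PC cells Igf1 rose from fed to 24 h by 0.73 (SE 0.15, adjusted p = 0.0028 by edgeR) and from 8 h to 24 h by 0.86 (SE 0.15, adjusted p = 0.00278). Of the periportal markers, 6 of 8 and 4 of 8 were called as higher in the same PC contrasts, Aldh1b1 and Cdh1 not among them. The part of the called markers in the rise of Igf1, itself a gene of the periportal side, was not tested. Without the PC 24 h library of replicate 2, which stood apart and had the highest Igf1 of its group, the 2 rises were 0.64 (adjusted p = 0.016 by edgeR) and 0.76 (adjusted p = 0.0169). In PP cells the change at 24 h was 0.25, with a 95% interval from -0.05 to 0.55, and did not pass. The test of whether the 24 h change differed between zones gave -0.48 for PP minus PC (SE 0.22, adjusted p = 0.621 by edgeR), so a difference between the zones was not called. Ordered by group mean, Igf1 ran from PC 8 h through PC fed, PC 24 h, PP fed and PP 8 h to PP 24 h, and only PC fed and PC 24 h were neighbours without overlap.

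Igfals, which encodes the acid-labile subunit that holds IGF-1 in blood, had its maximum in fed PP cells. Its levels there were 141, 93.6 and 140.0 CPM, against 63.6, 70.2 and 65.6 CPM at 8 h, then 68.9, 54.0 and 63.0 CPM at 24 h. In PC cells the levels were 61.7, 57.1 and 85.8 CPM when fed, 34.2, 38.8 and 52.4 CPM at 8 h, then 64.8, 77.5 and 55.2 CPM at 24 h. Fed PP libraries overlapped no other group, and in PC cells the 8 h libraries lay below the fed and the 24 h ones. Igfals fell in PP cells at 8 h by 0.91 (SE 0.19, adjusted p = 0.00515 by edgeR) and at 24 h by 1.01 (SE 0.19, adjusted p = 0.00183) on the log2 scale. In PC cells it fell by 0.71 at 8 h (SE 0.19, adjusted p = 0.0225 by edgeR) but not at 24 h (-0.05, 95% interval -0.43 to 0.33). The fall in PC cells at 8 h was lost without replicate 3 of PC fed (-0.51, adjusted p = 0.119), or replicate 1 (-0.58, 0.0998) or 2 (-0.64, 0.0871) of PC 8 h. A fit of only the groups compared lost it too. The difference between zones in the 24 h change was -0.96 for PP minus PC (SE 0.27, adjusted p = 0.345 by edgeR) and was not called.

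The zone difference of Igfals was 0.87 when fed (SE 0.19, adjusted p = 0.00941 by edgeR), and it was lost only without replicate 2 of PC fed (0.76, adjusted p = 0.0577). At 8 h the difference was 0.67 (SE 0.19, adjusted p = 0.0486 by edgeR), a call that 16 of 26 alternatives removed, with values from 0.54 to 0.85 and adjusted p from 0.0117 to 0.182. It was lost without replicate 1 or 2 of PC fed, 1 or 3 of PP fed, 1 or 2 of PC 8 h, 1 of PC 24 h, or any library of PP 8 h or PP 24 h. At 24 h the levels differed by -0.09 with a 95% interval from -0.47 to 0.29. The rise of Igfals from 8 h to 24 h in PC cells (0.66, SE 0.19, adjusted p = 0.0437 by edgeR) was lost in 14 of 26 alternatives, including the one without the PC 24 h library that stood apart (0.51, adjusted p = 0.169). As for Igf1, 4 of 8 periportal markers rose in the same contrast, and their part was not tested. The other libraries whose absence ended it were replicate 1 of PC fed, 3 of PP fed, 1 and 2 of PC 8 h, all 3 of PP 8 h, 1 and 3 of PC 24 h, and 1 and 3 of PP 24 h. Igfals lies at chr17:24865997-24882010 on the plus strand. RefSeq (GRCm38.p6) gives 3 promoter windows for it, each from 250 bases before to 50 after a transcript start. A stretch of each of the first 2 is shown because it holds the STAT5 palindrome, in capitals, and the third window holds 0 matches. Only the start of the third window lies close to a GENCODE M21 transcript start. Both stretches lie inside the gene and outside any exon of GENCODE M21, the first at -250 to -213 and the second at -73 to -35 from a RefSeq start.
Igfals, chr17:24877594-24877631, plus strand: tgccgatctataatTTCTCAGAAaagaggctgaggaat
Igfals, chr17:24878158-24878196, plus strand: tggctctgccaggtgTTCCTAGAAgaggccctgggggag

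Socs2 and Cish encode SOCS-family proteins that are induced by STAT5 and damp the signal of the growth hormone receptor, and they moved in opposite directions. Socs2 was low in the fed state, at 11.2, 5.16 and 6.85 CPM in PC and 4.33, 5.79 and 5.03 CPM in PP libraries. It reached 16.5, 11.3 and 21.5 CPM at 8 h, then 22.4, 21.4 and 35.7 CPM at 24 h in PC cells. In PP cells it reached 11.7, 8.05 and 17.8 CPM at 8 h, then 14.6, 13.1 and 10.8 CPM at 24 h. Every fasted library of a zone was above every fed library of that zone. Socs2 rose in PC cells by 1.09 at 8 h (SE 0.33, adjusted p = 0.0366 by edgeR) and 1.77 at 24 h (SE 0.33, adjusted p = 0.00141) on the log2 scale. In PP cells the rise was 1.3 at 8 h (SE 0.34, adjusted p = 0.0172 by edgeR), close to the 1.35 at 24 h (SE 0.34, adjusted p = 0.0116). Averaged over states, Socs2 was lower in PP than in PC cells (-0.69, SE 0.19, adjusted p = 0.0171 by edgeR). At 24 h alone the zones did not overlap, but the difference of -1.04 did not pass (SE 0.32, adjusted p = 0.0877 by edgeR).

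The calls of Socs2 at 8 h depended more on single libraries than those at 24 h. In PC cells the call was lost without replicate 2 (0.88, adjusted p = 0.137) or 3 (1.01, 0.118) of PC fed, or replicate 1 (1.09, 0.0768) or 3 (0.85, 0.139) of PC 8 h. With no filter and with only the groups compared, the call was lost as well. In PP cells it was lost without replicate 1 of PP fed (1.21, adjusted p = 0.0751) or replicate 3 of PP 8 h (0.97, 0.0833). The last of these is also the library with the highest endothelial marker sum. At 24 h the PP call was lost only without replicate 1 of PP fed (1.25, adjusted p = 0.0536), and the PC call held under all 26 alternatives. Socs2 lies at chr10:95385362-95417180 on the minus strand and shares 6.55% of its stretches of 31 bases with other genes, most of them with the processed pseudogene Gm9847, which was at 0 CPM in every library.

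Cish was high in fed PP cells, at 32.5, 56.4 and 29.8 CPM, and stood at 5.98, 7.36 and 6.12 CPM at 24 h. Between them, the 8 h PP libraries spread from 27.8 through 11.6 down to 3.51 CPM, the lowest being replicate 2. In PC cells Cish stood at 31.4, 7.72 and 10.05 CPM when fed, 1.47, 5.21 and 16.6 CPM at 8 h, then 4.53, 6.99 and 4.30 CPM at 24 h. In both zones all 24 h libraries lay below all fed ones, and the 8 h libraries spanned a wide range between and beyond. The change at 24 h was -2.61 in PP (SE 0.81, adjusted p = 0.0392 by edgeR) and -1.63 in PC cells (SE 0.81, adjusted p = 0.172), and -2.12 averaged over zones (SE 0.57, adjusted p = 0.0111). The PP call was lost when any 1 of the 6 PP libraries compared was left out (adjusted p from 0.0523 to 0.111). It was also lost with no filter and with the replicate number as a block. The average over zones held under all 26 alternatives. Of the stretches of 31 bases of Cish, 10.4% also occur in other genes, most of them in the antisense gene Gm17041, which has no entry among the counted genes. At 8 h the average of -1.27 did not pass (adjusted p = 0.11 by edgeR), though it did without replicate 3 of PC 8 h (-1.89, adjusted p = 0.0223) or replicate 1 of PP 8 h (-1.73, 0.0411).

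Bcl6 encodes a transcriptional repressor that STAT5 holds down in liver, and it changed against Cish. Fed libraries held 5.67, 7.21 and 9.19 CPM in PC and 7.88, 14.0 and 5.36 CPM in PP cells. At 24 h they held 40.4, 38.7 and 16.7 CPM in PC and 34.9, 37.5 and 32.4 CPM in PP cells. The 8 h libraries were uneven, at 73.5, 14.9 and 7.23 CPM in PC and 9.57, 37.7 and 11.2 CPM in PP cells. Each of the 6 libraries at 24 h was above each of the 6 fed ones, while the 8 h libraries overlapped both. Averaged over zones Bcl6 rose by 2.04 at 24 h (SE 0.54, adjusted p = 0.00991 by edgeR), under all 26 alternatives. Single zones did not pass by edgeR at 24 h (2.12 in PC, adjusted p = 0.0642, and 1.95 in PP, adjusted p = 0.0906), and both passed by DESeq2's Wald test (adjusted p = 0.0237 and 0.0426). By edgeR both passed without replicate 1 of PC 8 h (adjusted p = 0.0157 and 0.0254), and the first also without replicate 3 of PC 8 h (0.0356) or replicate 2 of PP 8 h (0.0463). At 8 h the PC change of 2.12 (adjusted p = 0.0872 by edgeR) was 0.58 without replicate 1 of PC 8 h and 2.60 without replicate 3 (0.0314). The average rise of 1.61 at 8 h (SE 0.54, adjusted p = 0.0399 by edgeR) was lost under 11 alternatives. Without replicate 1 of PC 8 h it was 0.85 (adjusted p = 0.159), and without replicate 2 of PP 8 h it was 1.16 (0.127). The same held without any 1 of the 3 PC fed libraries, without replicate 1 or 3 of PP fed, and with the replicate number as a block (1.47, adjusted p = 0.0539).

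Cish and Bcl6 are the 2 members besides Igfals whose promoter windows hold the palindrome TTCNNNGAA, which reads the same on both strands. A window was found for 9 of the 10 members, with 15 windows in all, and 5 windows of 3 members held at least 1 match. Among all 32851 windows of the table, 8.30% held a match and 0.457% held 2 or more. The stretches around the matches are shown because these 3 genes were each called at 24 h, Cish and Igfals as lower and Bcl6 as higher. The Cish stretch holds 2 matches in a row, beginning at bases 1 and 12 of the RefSeq transcript, and lies in an untranslated part of an exon of Cish in GENCODE M21. The first Bcl6 stretch lies just before the gene, and the second, with 3 matches, lies inside it and outside any exon. No GENCODE M21 transcript start lies close to the RefSeq start of the Cish window or of the second Bcl6 window. Capitals mark the matches, and a match describes the letters only.
Cish, chr9:107296654-107296683, plus strand: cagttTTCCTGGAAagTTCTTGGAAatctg
Bcl6, chr16:23988947-23988985, minus strand: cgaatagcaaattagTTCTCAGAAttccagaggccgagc
Bcl6, chr16:23981348-23981466, minus strand: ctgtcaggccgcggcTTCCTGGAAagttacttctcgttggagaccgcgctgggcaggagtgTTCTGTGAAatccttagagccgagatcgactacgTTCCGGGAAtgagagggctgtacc

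Onecut1, a liver transcription factor that growth hormone regulates, fell with Cish. It stood at 99.4, 44.4 and 29.7 CPM in fed PC libraries, 7.21, 19.7 and 68.4 CPM at 8 h, then 23.9, 14.5 and 25.6 CPM at 24 h. In PP cells it stood at 96.3, 81.3 and 87.1 CPM when fed, 72.3, 12.2 and 63.7 CPM at 8 h, then 24.8, 10.9 and 9.61 CPM at 24 h. The 24 h libraries lay below the fed ones in both zones, and the fed PP libraries were the closest together. The change at 24 h was -2.56 in PP (SE 0.79, adjusted p = 0.0383 by edgeR), -1.44 in PC cells (SE 0.76, adjusted p = 0.203) and -2.0 averaged over zones (SE 0.55, adjusted p = 0.0123). The PP call was lost without any 1 of the 3 PP fed libraries or without replicate 2 or 3 of PP 24 h (adjusted p from 0.064 to 0.129). It was also lost with no filter. The average held under all 26 alternatives. At 8 h the averaged change of -0.85 did not pass, and without replicate 3 of PC 8 h it was -1.47 (adjusted p = 0.044 by edgeR). The string ATTGAT, the core that the Onecut1 protein binds, was in 0 of the 15 member windows on either strand and in 7.54% of all windows. Of the stretches of 31 bases of Onecut1 itself, 52.5% also occur in the overlapping noncoding gene Gm20649 on the same strand. That gene has no entry among the counted genes, so the level of Onecut1 is uncertain to that extent.

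In the order of group means of Igfals, the neighbours PC 8 h and PP 24 h, and PC fed and PP fed, did not overlap. The same held for PC fed and PC 8 h in Stat5a and for PP fed and PC 24 h in Stat5b. For the 6 genes other than these 3 and Igf1, all 5 pairs of neighbouring groups overlapped. How often neighbouring groups overlap over all genes was not counted, so this is a description of the levels only.

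Counted over the 10 genes, periportal and pericentral cells differed in 2 members when fed and 2 at 8 h (Igf1 and Igfals, both higher in PP), against 8.01% and 7.14% of all genes tested. At 24 h edgeR called 0 members (3 at an unadjusted p under 0.05), against 4.17% of all genes. DESeq2 called 3 (Ghr, Igf1 and Socs2) and limma-voom 0. Averaged over states 5 members differed, with Igf1 and Igfals higher and Ghr, Socs2 and Stat5a lower in PP cells, against 20.3% of all genes (10.3% higher and 9.96% lower). The Igf1 and Igfals values of the fed PP library of replicate 2 were the lowest of their group. That library had the highest pericentral marker sum among fed PP libraries, 1747 CPM against 480.6 and 602 CPM. Replicate 1 of PP 24 h had the highest sum of all PP libraries, 2164 CPM. Its Igfals (68.9 CPM) was the highest of its group and its Igf1 (675 CPM) the middle value. The part of pericentral RNA in these levels was not tested. Without the PC 24 h library that stood apart, the 5 averaged zone differences were 0.84 for Igf1, 0.52 for Igfals, -0.24 for Ghr, -0.74 for Socs2 and -0.41 for Stat5a, all still called.

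With 8 h of fasting, 3 members were called in PC cells (Socs2 and Stat5b higher, Igfals lower) and 4 in PP cells (the same 3 and Ghr lower), against 13.8% and 14.4% of all genes. At 24 h, 2 members were called in PC cells (Igf1 and Socs2 higher), against 21.8%. In PP cells 5 were called (Socs2 higher, and Ghr, Igfals, Cish and Onecut1 lower), against 19.6%. From 8 h to 24 h, 3 members were called in PC cells (Igf1 and Igfals higher, Stat5a lower), against 9.71%. In PP cells edgeR, DESeq2 and limma-voom each called 0 (3 at an unadjusted p under 0.05 by edgeR), against 7.46%.

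Averaged over zones, 6 members were called at 8 h (4 higher and 2 lower), against 26.4% of all genes (13.8% higher and 12.5% lower), and 8 at 24 h (4 higher and 4 lower), against 34.5% (17% higher and 17.5% lower). Between 8 h and 24 h 3 were called, against 20.2%. The members and the gene lists below were chosen with earlier results of these data known, so these shares are a description and not a test. The 10 log2 fold changes had a median of 0.01 at 8 h and 0.02 at 24 h, beside 0.01 at both times over all genes. The direct test of a zone difference in the change from fed called 0 members at 8 h and 0 at 24 h by edgeR, DESeq2 and limma-voom alike (0 and 2 at an unadjusted p under 0.05 by edgeR). Of all genes, edgeR called 0% and 0.016%. The zone difference in the 24 h change (PP change minus PC change) had a median of -0.45 over the members, beside -0.005 over all genes, and was below 0 for every member but Stat5a. The same quantity had a median of -1.52 over the 8 periportal markers, and their part was not tested. A call in 1 zone and not in the other was therefore nowhere a called difference between zones.

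**Figure D2:**
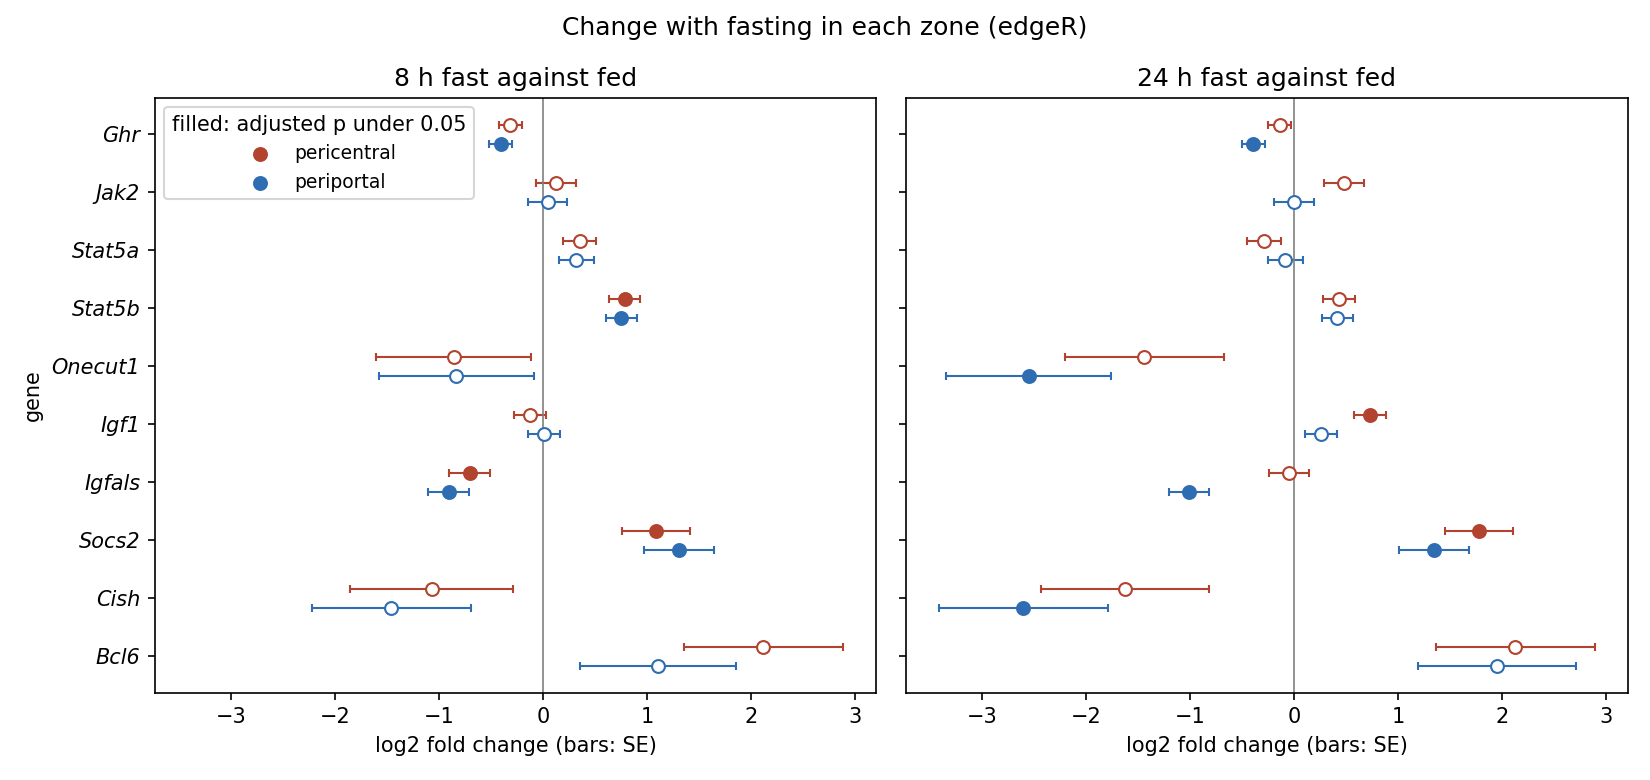
Log2 fold change of each gene from fed to 8 h (left) and to 24 h (right) in pericentral (red) and periportal (blue) hepatocytes, with bars for the SE. Filled points have an adjusted p under 0.05 by edgeR. Socs2 is filled in both zones at both times, whereas Cish, Bcl6 and Onecut1 have the longest bars and are filled only at 24 h in periportal cells, for Cish and Onecut1.

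Cish, Onecut1 and Bcl6 were set apart by how much libraries of the same group differed. Their pooled SD within groups was 1.06, 1.02 and 0.93 log2 units, above that of 96.8%, 96.4% and 95.6% of the genes tested, whose median was 0.223. Ghr, at 0.122, was below the median and above 13.8% of genes. In the PC 8 h group Bcl6 was highest (73.5 CPM) in replicate 1, where Cish (1.47 CPM) and Onecut1 (7.21 CPM) were lowest. In the PP 8 h group it was highest (37.7 CPM) in replicate 2, where again Cish (3.51 CPM) and Onecut1 (12.2 CPM) were lowest. Other groups did not show this order: Cish and Bcl6 were both highest in replicate 2 of PP fed and of PP 24 h, and both lowest in replicate 3 of PP fed and of PC 24 h. The libraries of an 8 h group thus ranged over most of the distance between the fed and the 24 h levels of these genes.

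This covariation was measured for all 45 pairs of members as the correlation, across the 18 libraries, of log2 CPM minus its group mean, with an exact permutation of libraries within groups (46656 arrangements, two-sided) and adjustment over the pairs. The pair with the smallest p was Bcl6 with Onecut1, with Pearson's r = -0.829 (exact p = 0.00176, adjusted p = 0.0792) and Spearman's rho = -0.684 (exact p = 0.00639, adjusted p = 0.183). Without the 2 libraries farthest from the median in the gene named first in the pair, here Bcl6, r was -0.716. Cish with Onecut1 had r = 0.822 (exact p = 0.023, adjusted p = 0.272) and rho = 0.61 (exact p = 0.0521, adjusted p = 0.357), and r = 0.689 without 2 libraries. Cish with Bcl6 had r = -0.706 (exact p = 0.0638, adjusted p = 0.327) and rho = -0.408 (exact p = 0.206, adjusted p = 0.618), and r = -0.444 without 2 libraries. Igf1 with Igfals had r = 0.673 (exact p = 0.00879, adjusted p = 0.198) and rho = 0.699 (exact p = 0.00812, adjusted p = 0.183), and r = 0.662 without 2 libraries. By these exact permutation tests 0 of the 45 pairs passed an adjusted p of 0.05, and 6 had an unadjusted p under it.

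**Figure D3:**
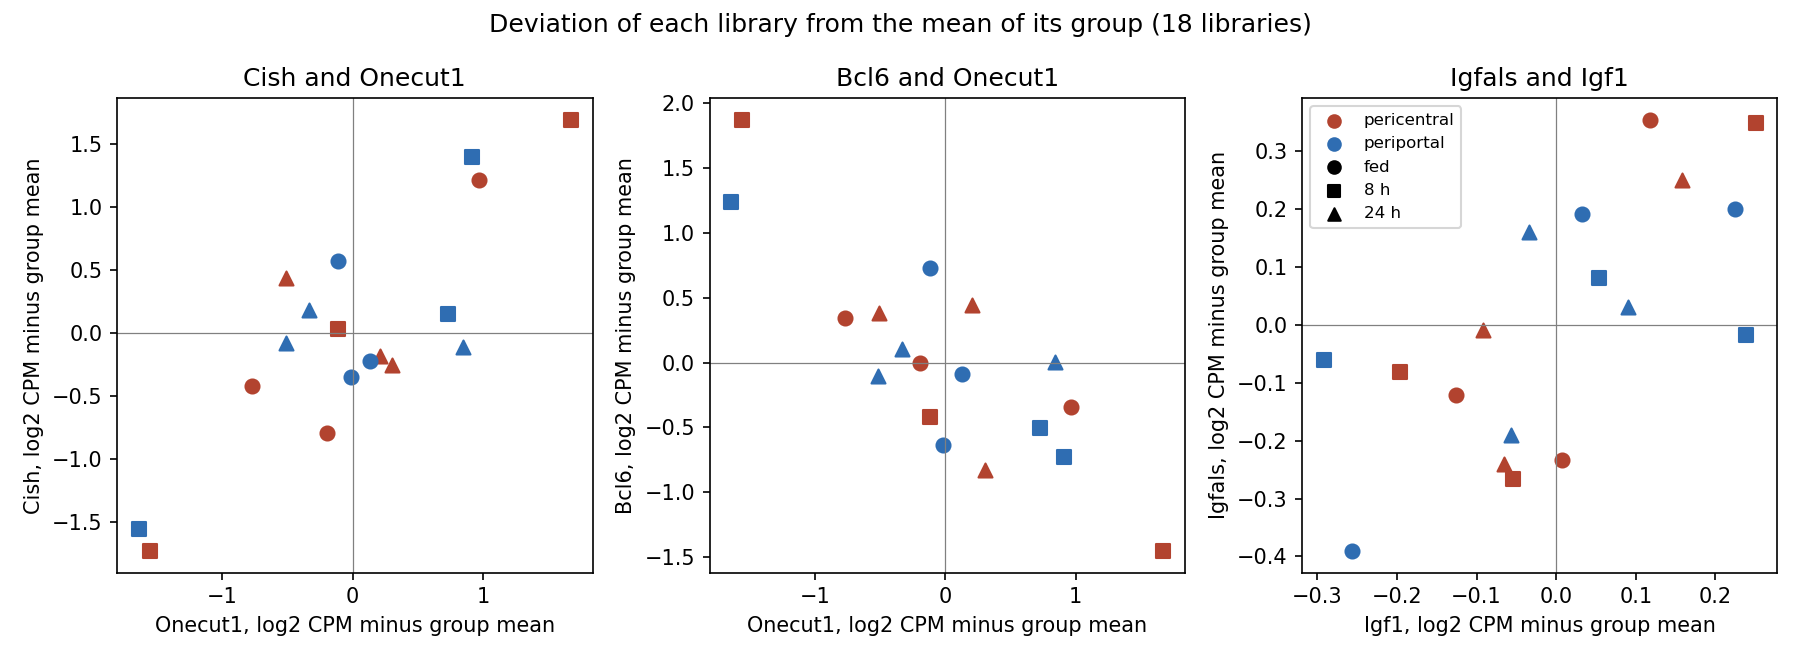
Deviation of each of the 18 libraries from the mean of its group, in log2 CPM, for Cish against Onecut1 (left), Bcl6 against Onecut1 (middle) and Igfals against Igf1 (right). Colours mark the zone and shapes the feeding state. Squares, the 8 h libraries, take the extreme positions in the left and middle panels.

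The rest of the signalling chain was taken from a list of 22 kinases, STATs and brakes, of which 20 were tested. Averaged over zones, 2 rose and 1 fell at 8 h, and 4 rose (Sh2b1, Sh2b3, Socs7 and Ptpn6) and 2 fell (Jak1 and Stat2) at 24 h. These 3 and 6 of 20 stand beside 26.4% and 34.5% of all genes called, so the list was not above the background. The median change was 0.07 and 0.02, beside 0.01 over all genes. Stat3, the STAT of interleukin-6 signalling, went from 67.2 ± 5.88 CPM (SD, n = 3) when fed to 124 ± 57.6 CPM at 8 h in PC cells, a called rise of 0.88 (SE 0.21, adjusted p = 0.00993 by edgeR). In PP cells the change of Stat3 at 8 h was 0.34 (adjusted p = 0.328 by edgeR), and at 24 h it was 0.38 in PC and 0.36 in PP cells, none of which passed. The 8 h libraries ran from 82.4 to 190 CPM in PC and from 78.9 to 93.2 CPM in PP cells. How far the PC call rested on 1 library was not tested. Socs5 was a gene of the periportal side, at 7.29 ± 0.79 CPM when fed in PP and 2.65 ± 0.74 CPM in PC cells (averaged difference 1.44, SE 0.14, adjusted p = 1.24e-06). Stat2, of interferon signalling, fell by 0.52 at 24 h (SE 0.13, adjusted p = 0.0041 by edgeR), and Sh2b1, an adaptor of JAK2, rose by 0.56 (SE 0.17, adjusted p = 0.0187).

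Of 16 genes of the IGF system, 11 were tested. Averaged over zones 3 rose and 1 fell at 8 h, and 4 rose (Igfbp1, Igfbp2, Igfbp4 and Insr) and 0 fell at 24 h, with medians of 0.10 and 0.31 beside 0.01 over all genes. The 4 of 11 called at each time stand beside 26.4% and 34.5% of all genes. Igfbp1, a binding protein whose gene insulin represses, changed most: from 15.2 ± 9.94 CPM when fed to 181 ± 65.9 CPM at 8 h, then 285 ± 175 CPM at 24 h in PC cells, and from 16.8 ± 4.99 to 129 ± 41.3 and 542 ± 508 CPM in PP cells (SD, n = 3). The averaged log2 fold change of Igfbp1 was 3.25 at 8 h (SE 0.53) and 4.62 at 24 h (SE 0.57, adjusted p = 3.48e-05 by edgeR). Igfbp2 rose by 1.17 (SE 0.17) and the insulin receptor gene Insr by 0.49 (SE 0.06) at 24 h. Igfbp5 fell by 1.90 at 8 h in PP cells (SE 0.44, adjusted p = 0.00826 by edgeR), from 9.95 ± 2.15 to 2.68 ± 1.39 CPM, and by 1.42 at 24 h (SE 0.43, adjusted p = 0.0287). In PC cells the Igfbp5 change was -0.83 at 8 h and 0.72 at 24 h, neither of which passed, and averaged over zones it was -1.37 at 8 h, which was called, and -0.35 at 24 h, which was not.

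Genes known to differ between male and female liver through growth hormone were followed in these males as 2 lists. Of 16 male-biased genes, all tested, 2 rose and 0 fell at 8 h, and 1 rose (Elovl3) and 2 fell (Hsd3b5 and Cyp2u1) at 24 h, averaged over zones. The share of all genes called was 26.4% at 8 h and 34.5% at 24 h, and these counts of 2 and 3 of 16 lie below it. The list had medians of 0.30 (8 h) and -0.09 (24 h). Across zones 5 were higher and 7 lower in PP cells, beside 10.3% and 9.96% of all genes. Elovl3, a fatty acid elongase, rose at 8 h from 23.9 ± 6.62 to 338 ± 76.0 CPM in PC and from 4.82 ± 1.53 to 78.7 ± 41.8 CPM in PP cells (averaged log2 fold change 3.93, SE 0.53, adjusted p = 1.09e-04 by edgeR). By 24 h Elovl3 was at 51.7 ± 39.5 CPM in PC and 18.3 ± 17.4 CPM in PP cells. Averaged over zones it was still called as higher than when fed (1.52, SE 0.50, adjusted p = 0.0302 by edgeR), though in neither zone singly. The 8 h groups alone were taken at another clock hour, and the parts of hour and food at 8 h cannot be told apart. Susd4 and Serpina12 marked opposite sides, with averaged PP minus PC differences of -4.06 (SE 0.34) and 3.18 (SE 0.27). Ugt2b38 also was higher in PP cells (2.69, SE 0.54).

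Of 15 female-biased genes, 11 were tested, and 0 rose and 1 fell (Acot3) at 8 h, while 5 rose and 0 fell at 24 h. The median change of the 11 was -0.10 at 8 h and 0.59 at 24 h, beside 0.01 over all genes at both times, and 17% of all genes were called as higher at 24 h. The 5 were Cyp17a1, Cux2, Trim24, Acot3 and Cyp4a14. Acot3 and Cyp4a14 are also known targets of PPAR-alpha, the fasting receptor for fatty acids, and Cux2 is a female-biased transcription factor of liver. Cux2 rose from 2.63 ± 1.28 to 7.47 ± 2.28 CPM in PC and from 2.25 ± 1.07 to 10.2 ± 3.43 CPM in PP cells at 24 h (averaged 1.84, SE 0.29, adjusted p = 1.7e-04 by edgeR). Acot3 rose by 2.32 (SE 0.39), Cyp4a14 by 1.74 (SE 0.47) and Cyp17a1 by 1.23 (SE 0.44, adjusted p = 0.0423 by edgeR). Some genes of the Cyp, Mup, Serpina and Ugt families have close copies that can share reads. Shared stretches were measured for the 10 members alone, so the levels of such list genes may be uncertain.

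A list of 11 genes tied to growth hormone resistance in fasting, all tested, had 4 higher and 0 lower at 8 h and 7 higher and 0 lower at 24 h (Klb, Sirt1, Ppara, Foxo1, Foxo3, Lepr and Hnf4a), with medians of 0.19 and 0.56 beside 0.01 over all genes. Of all genes, 13.8% were called as higher at 8 h and 17% at 24 h. Foxo1, the insulin-restrained transcription factor, rose in PC cells from 29.4 ± 0.46 to 44.5 ± 6.37 and 70.9 ± 10.3 CPM, and in PP cells from 27.0 ± 4.70 to 49.6 ± 9.59 and 69.6 ± 13.1 CPM (SD, n = 3). Ppara rose by 0.90 at 24 h (SE 0.10, adjusted p = 6.45e-06 by edgeR). Egfr, which growth hormone induces in liver, was higher at 8 h (0.99, SE 0.24, adjusted p = 0.00559 by edgeR) and did not pass at 24 h (0.39). Fgfr1 was low in PC cells, with group means of 8.05 to 9.52 CPM in PP against 0.48 to 0.68 CPM in PC cells (averaged difference 3.94, SE 0.31). The part of endothelial and Kupffer cell RNA, whose markers were also higher in PP libraries, in this difference was not tested.

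Among 11 liver transcription factors beside Onecut1, all tested, 2 rose and 2 fell at 8 h, and 3 rose (Cebpb, Nr5a2 and Prox1) and 4 fell (Foxa1, Foxa2, Foxa3 and Cebpa) at 24 h, averaged over zones, with medians of 0.06 and -0.19. These 4 and 7 of 11 stand beside 26.4% and 34.5% of all genes. Foxa2 fell by 1.12 at 24 h (SE 0.22, adjusted p = 9.63e-04 by edgeR), from 39.7 ± 11.6 to 20.3 ± 2.37 CPM in PC and from 45.8 ± 13.0 to 19.0 ± 4.49 CPM in PP cells. Foxa3 was lowest at 8 h (-0.76, SE 0.11, adjusted p = 5.22e-05 by edgeR). Cebpb rose by 1.05 (SE 0.16) and Cebpa fell by 0.56 (SE 0.16) at 24 h. Beside these, Onecut1 changed by -2.0.

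**Figure D4:**
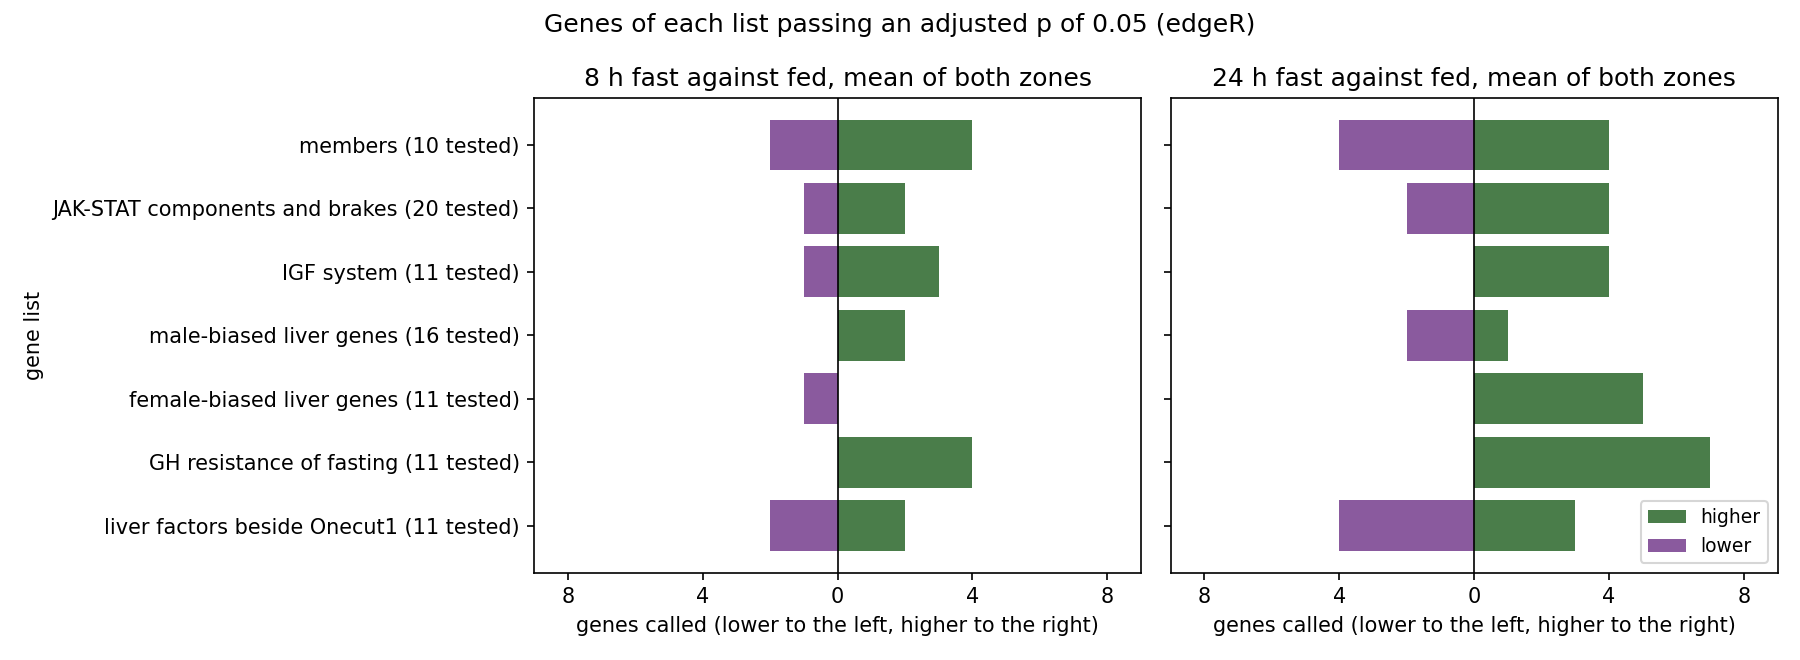
Number of genes of each list with an adjusted p under 0.05 by edgeR (x axis) that were higher (green, to the right of 0) or lower (purple, to the left) at 8 h and at 24 h of fasting, averaged over zones. The female-biased list has 1 gene lower at 8 h and 5 higher at 24 h, and the 10 members have 4 higher and 4 lower at 24 h.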

How the data were processed

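For the 18 libraries, a single deposited table gives each gene's estimated counts. Per the submitters' processing notes, the tools and builds named were kallisto 0.46.0 and mm10, and per the labels' protocols a NEBNext Ultra RNA kit was used. Strand use and the step from transcripts to genes are not given in the sources used here. Estimated counts were rounded to whole numbers, filtered with filterByExpr and scaled by TMM. One edgeR 4.0.16 quasi-likelihood fit (R 4.3.3) held all 18 libraries with 1 coefficient per group, and 15 contrasts were taken. P-values were adjusted by Benjamini-Hochberg over the 12477 genes tested. The SE is the fold change divided by the square root of F, log2 CPM used a prior count of 2, and the 95% intervals are the normal ones. The test was checked on simulated data in which every gene had the same dispersion. That check does not cover genes as scattered within groups as Cish, Bcl6 and Onecut1.

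The members and all gene and marker lists were chosen with earlier results of these data known. From each of the 6 pathway lists, up to 4 called genes with a mean of at least 5 CPM were named by size of change. One gene of the female-biased list is not reported here and was left out of its counts. Alternatives were DESeq2 1.42.0 (size factors, Wald test), limma-voom (3.58.1), other filters, scaling without the 20 most abundant genes, fits of only the groups compared, a replicate block and leaving out each library. Replicates differed beyond sampling noise, with a chi-square per gene of 35.0 to 117. Positions are from GENCODE M21 (GRCm38, the build of mm10), and promoters from RefSeq.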

Additional observations from a re-analysis of the deposited data

How the results depend on the processing

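Across 26 alternatives, 28 of the 43 single-gene calls of edgeR were kept in each, 15 were lost in at least 1, and 16 results without a call gained 1. No called result changed sign, whereas 29 uncalled ones did under at least 1 alternative. The number of members called in PP against PC at 8 h went from 2 to 1 with no filter, with scaling without the 20 most abundant genes and with only the groups compared. PP against PC at 24 h went from 0 to 1 with only the groups compared and to 3 with DESeq2. PC at 8 h went from 3 to 1 and to 5 under those 2, and PC at 24 h from 2 to 4 under both. PP at 24 h went from 5 to 3 with no filter and to 7 with DESeq2, which added Bcl6 and Stat5b. The causes were not tested. Leaving out 1 library at a time gave 1 to 3 members for PP against PC when fed, 1 to 3 at 8 h and 0 to 1 at 24 h. It gave 1 to 3 for PC at 8 h, 1 to 3 for PC from 8 h to 24 h, 2 to 4 for PP at 8 h and 1 to 6 for PP at 24 h. Where this left a group with 2 libraries, the spread was still pooled over all groups.

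With the replicate number as a block, Cish in PP cells at 24 h (-2.63, adjusted p = 0.0504 by edgeR) and Bcl6 averaged over zones at 8 h (1.47, 0.0539) lost their call and Stat5b in PC cells at 24 h gained it. No other call changed. The labels do not say that numbers pair the libraries. Deviations of PC and PP libraries of the same state and number correlated at 0.022 to 0.183. The best match was sought among libraries of the other groups, where 1 in 3 carried the same number. For 12 of 18 libraries it had their own number. What the shared number stands for was not tested. The lowest estimated count of a member was 36.2, for Cish in 1 library. Whether count level limited the calls was not tested.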

Other observations

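For 5 members, the genes with the most similar pattern over the 6 group means of log2 CPM were looked up among 6572 tested genes with a mean of at least 10 CPM. Igf1 was most like Ndufv1, Otud7b and Slmap (r = 0.997, 0.995 and 0.994). Socs2 was most like Utp14a, Sik2 and Tbc1d20 (r = 0.997, 0.987 and 0.987). Cish was most like Anapc4, Pdhx and Usp48 (r = 0.995, 0.994 and 0.994). Bcl6 was most like Klf15, Xpa and Ubr7 (r = 0.996, 0.995 and 0.994). Onecut1 was most like Arcn1, Slc10a5 and Hdlbp (r = 0.992, 0.989 and 0.988). With 6 points per gene, such values are easily reached in a search over that many genes, and they are given as a description.

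The other 3 pairs of members with an unadjusted p under 0.05 varied together within groups less closely. Jak2 correlated with Igf1 (r = 0.5, exact permutation p = 0.0414, adjusted p = 0.31; rho = 0.575, exact p = 0.0299, adjusted p = 0.336) and with Stat5a (r = -0.535, exact permutation p = 0.0242, adjusted p = 0.272; rho = -0.598, exact p = 0.0213, adjusted p = 0.32). Socs2 correlated with Stat5b (r = -0.556, exact permutation p = 0.0353, adjusted p = 0.31; rho = -0.519, exact p = 0.0556, adjusted p = 0.357). Without the 2 libraries farthest from the median in Igf1, Stat5a and Socs2 in turn, r was 0.31, -0.454 and -0.321. None of the 3 passed the adjustment over 45 pairs.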
